A study of Mus musculus with 11 samples.

Results

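Toll-like receptors are the pattern recognition receptors with which neutrophils (PMNs), the first leukocytes to enter inflamed tissue, sense microbial lipids, proteins and nucleic acids. The genes described here were the receptors Tlr1, Tlr2, Tlr4, Tlr5, Tlr6, Tlr7, Tlr8, Tlr9 and Tlr13 and the chaperone gene Unc93b1, chosen by name and not by their values, 10 of the 54164 genes listed. All 10 had a mean of at least 1 TPM (a transcript share scaled by length and library total) over the libraries and were tested, along with the other genes of the 12195 that passed this filter.

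RNA was sequenced from PMNs of 5 WT and 6 FOXO3 KO mice, 1 library per mouse. All mice were C57BL/6, were 6 to 8 weeks old, and carried no other allele or agent named in the labels. Both groups received 2 intraperitoneal injections of casein, a milk protein that draws PMNs into the peritoneal cavity, and cells were collected 3 h after the second and enriched on a density gradient, so no group describes resting PMNs. The deletion is given only as FOXO3 KO, with no cell type to which it was limited.

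Foxo3, the deleted gene, had 7.61 to 11.7 TPM in WT and 0.844 to 4.27 TPM in FOXO3 KO libraries, and these ranges did not overlap. The libraries fell into 2 numbering series in the deposited table, a first series numbered 1, 2 and 3 in each genotype and a second series numbered 03 and 08 in WT and 05, 06 and 09 in FOXO3 KO. The labels do not say what the series stand for. The summed TPM of 12 B cell markers was 24.5 to 136.3 in the first series and 574.9 to 2410 in the second, where FOXO3 KO 05 was the highest. None of the 12 was at 0 in every library, but 1 was under 1 TPM in every library of the first series. The sum of 10 neutrophil markers was 102465 to 255433 TPM, so markers of the labelled cell type were abundant in every library. Between genotypes, 10 of 10 neutrophil markers had negative log2 fold changes (FOXO3 KO minus WT, median -0.46), as did 8 of 8 macrophage markers tested (median -0.44), whereas 12 of 12 B cell markers had positive ones (median 0.55). None of these markers was called, and their part in the receptor differences was not tested except for Cd79a. In each result below, fewer cells of a type and less RNA per cell cannot be told apart.

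The receptors act in different places. TLR1, TLR2, TLR4, TLR5 and TLR6 bind lipopeptides, lipopolysaccharide or flagellin at the cell surface, whereas TLR7, TLR8, TLR9 and TLR13 bind nucleic acids in endosomes, to which UNC93B1 carries them from the endoplasmic reticulum. Nearly all of them signal through the adaptor MYD88 and kinases of the IRAK family to NF-kB and interferon regulatory factors. TLR9, which recognizes unmethylated CpG DNA, is well known in B cells and plasmacytoid dendritic cells, so B cell RNA in a library is a possible source of its transcript.

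The promoter of Tlr9 is shown because Tlr9 had the largest genotype difference among the 10 genes, that of Tlr8 because it was the member that differed between the series, and that of Tlr6 because its levels did not overlap between the genotypes in the first series. Each runs from 250 bases before to 50 bases after a RefSeq transcript start on GRCm38.p6, in the direction of the gene, and capitals mark matches to the motifs given after the sequences.
Tlr9, chr9:106222348-106222647, plus strand: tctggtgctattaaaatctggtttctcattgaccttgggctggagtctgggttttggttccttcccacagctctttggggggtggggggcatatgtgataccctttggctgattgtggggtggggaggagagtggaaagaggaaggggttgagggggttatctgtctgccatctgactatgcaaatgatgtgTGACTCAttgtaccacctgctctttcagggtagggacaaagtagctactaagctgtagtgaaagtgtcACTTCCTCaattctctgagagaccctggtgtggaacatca
Tlr8, chrX:167264280-167264579, minus strand: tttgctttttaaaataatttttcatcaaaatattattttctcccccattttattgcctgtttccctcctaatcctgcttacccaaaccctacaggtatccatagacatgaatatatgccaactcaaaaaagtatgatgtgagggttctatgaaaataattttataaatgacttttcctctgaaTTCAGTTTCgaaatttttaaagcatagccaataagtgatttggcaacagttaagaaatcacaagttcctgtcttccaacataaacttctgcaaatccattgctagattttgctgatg
Tlr6, chr5:64959117-64959416, minus strand: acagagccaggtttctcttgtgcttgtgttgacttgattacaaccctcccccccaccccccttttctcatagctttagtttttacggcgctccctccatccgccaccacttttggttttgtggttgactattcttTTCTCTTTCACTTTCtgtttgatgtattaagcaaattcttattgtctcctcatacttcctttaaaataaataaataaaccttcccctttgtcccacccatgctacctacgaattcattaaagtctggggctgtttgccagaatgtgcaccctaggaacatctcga

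Motifs were searched on both strands in 9 promoters of 7 members, namely the FOXO motif GTAAACA, an NF-kB type motif GGGNNTTTC, the AP-1 motif TGANTCA, the PU.1 motif GAGGAAGT, the C/EBP motif TTGCNNCAA and the IRF motif GAAANNGAA. In the Tlr9 promoter the AP-1 letters began 58 bases before the start and the PU.1 letters, on the minus strand, 10 bases after it. The Tlr8 promoter held the IRF letters 67 bases before the start. In the Tlr6 promoter shown, a pair of overlapping IRF matches began 115 and 109 bases before the start, and its other promoter held the C/EBP letters. PU.1 letters also lay in 1 of the Tlr1 promoters. Among all 32851 RefSeq mouse promoters of this length, 7.81% held the AP-1 letters, 3.20% PU.1, 8.56% IRF and 2.08% C/EBP. The FOXO letters, which 3.65% of promoters held, and the letters GGGNNTTTC, which 4.36% held, were in none of the 9. Other forms of the NF-kB motif were not searched, so their absence from these promoters is not shown. Tlr4, Tlr7 and Unc93b1 had no promoter in the table used. A match is a description of the letters and not of binding.

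To compare the receptors with each other, their levels were ranked by mean TPM, which is scaled by transcript length. Tlr2, the common partner of TLR1 and TLR6 in lipopeptide recognition, was the highest at 279.2 ± 78.7 TPM (SD, n = 11), and it exceeded Tlr13, the receptor for bacterial ribosomal RNA in mice, in 11 of 11 libraries. Tlr13 followed at 161.3 ± 54.5 TPM and exceeded Unc93b1, at 116.6 ± 38.7 TPM, in 8 of 11 libraries. Tlr6 (55.1 ± 14.1 TPM), Tlr4 (53.0 ± 15.1 TPM) and Tlr1 (48.9 ± 17.3 TPM) could not be ordered, since Tlr6 exceeded Tlr4 in 5 of 11 libraries and Tlr4 exceeded Tlr1 in 6 of 11. Tlr7, a sensor of single-stranded RNA, had 21.3 ± 6.93 TPM, above Tlr9 at 12.7 ± 6.24 TPM in 9 of 11 libraries. Tlr9 and Tlr8 (9.54 ± 5.60 TPM) did not differ beyond their spread, with Tlr9 the higher in 6 of 11. Tlr5, the flagellin receptor, was the lowest at 1.18 ± 1.02 TPM in all 11 libraries. Tlr3, Tlr11 and Tlr12 stayed under the filter, at no more than 0.594, 0.137 and 0.481 TPM in any library, and were not tested.

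**Figure D1:**
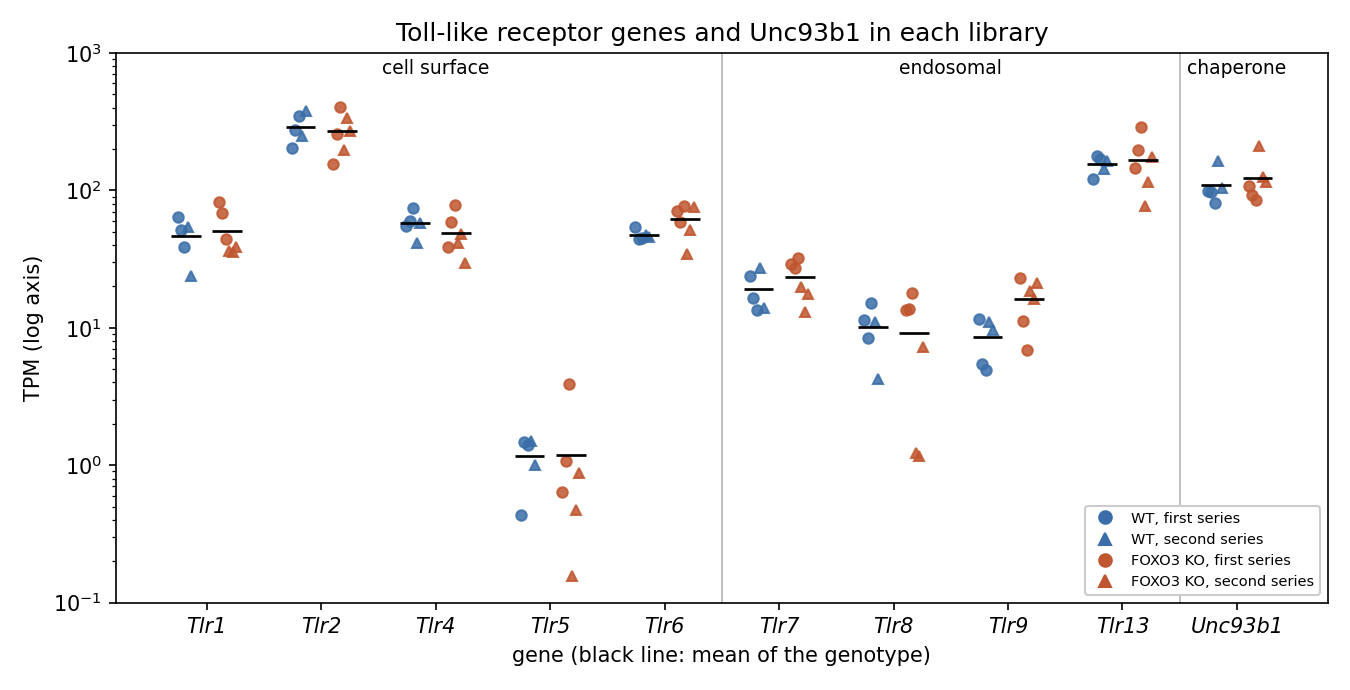
TPM (log axis) of the 10 genes in each library, by genotype (colour) and numbering series (circles, numbered 1 to 3; triangles, numbered 03 to 09), with black lines at the genotype means. Tlr2 and Tlr13 lie highest and Tlr5 lowest in both genotypes, Tlr9 is the gene whose FOXO3 KO mean is farthest above its WT mean, and Tlr8 is at 1.23 and 1.17 TPM in FOXO3 KO 05 and 06.

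The endosomal receptors supplied 30.5% ± 2.40 (SD, n = 5) of all receptor TPM in WT PMNs. The same share averaged 32.6% ± 5.69 (SD, n = 6) with FOXO3 deleted, so the balance between endosomal and surface receptors differed by less than the spread between libraries. In the first series the share was 28.6% to 32.7% in WT and 35.8% to 37.7% in FOXO3 KO, without overlap. This separation was not tested and only describes the values. In the second series it was 27.4% and 32.8% in WT and 23.7%, 27.4% and 34.7% in FOXO3 KO, where the genotypes overlapped. Tlr13 supplied 66.2% to 85.5% of the endosomal TPM. Tlr9 supplied only 1.98% to 15.7%, with the lowest share in FOXO3 KO 3 and the highest in FOXO3 KO 05.

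To test the effect of FOXO3 deficiency, all 12195 genes were compared between FOXO3 KO and WT with limma on log2(TPM + 1), and the calling rule required FDR < 0.05 and a log2 fold change beyond 0.5 in either direction. None of the 10 members was called, against 0% of all genes, since the smallest FDR of any gene was 0.49. The gene with this FDR was Foxo3, whose log2 fold change was -1.65, so the rule did not call even the deleted gene. A missing call is therefore not evidence that a gene was unchanged. At an unadjusted p under 0.05, 1 member was higher in FOXO3 KO (Tlr9) and 0 were lower, against 1.56% of all genes higher and 0.549% lower. Over all genes the fold changes had a median of 0.11 (log2), and quantile normalization moved that median by -0.10, so the relative values given below subtract 0.11. The share of the genes at unadjusted p under 0.05 that were higher in FOXO3 KO was 73.9%, and 42.3% after quantile normalization.

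Tlr9 (chr9:106222598-106226883, plus strand, GRCm38; no other annotated gene overlaps it) was the member with the largest difference. In the first series it had 11.5, 5.45 and 4.92 TPM in WT 1, 2 and 3 and 23.2, 11.3 and 6.87 TPM in FOXO3 KO 1, 2 and 3. In the second series it had 10.99 and 9.62 TPM in WT 03 and 08 and 18.4, 16.1 and 21.2 TPM in FOXO3 KO 05, 06 and 09. Thus 4 of 6 FOXO3 KO libraries lay above the highest WT library. The genotypes overlapped in the first series through FOXO3 KO 2 and 3, and they did not overlap in the second. The share of all genes that separated in the second series was not counted, so this separation only describes the values of Tlr9. The ratio of same-numbered libraries, FOXO3 KO to WT, was 2.02, 2.06 and 1.40.

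WT PMNs averaged 8.502 ± 3.11 TPM of Tlr9 (SD, n = 5). FOXO3 KO PMNs averaged 16.2 ± 6.17 TPM (SD, n = 6), which was 1.90-fold higher. By limma, its log2 fold change was 0.83 (standard error 0.32, 95% interval 0.13 to 1.52, unadjusted p = 0.023), or 0.71 relative to all genes, and its Benjamini-Hochberg FDR was 0.99. A 2-sided exact permutation test over all 462 ways to divide the 11 libraries gave p = 0.039, where the smallest possible is 0.0022. This test treated all libraries as exchangeable and took no account of the numbering series. The study singled out Tlr9 in these same libraries, so neither p is independent of that choice. Its list of differing genes gives Tlr9 a negative fold change, whereas its discussion describes Tlr9 as increased in FOXO3-deficient PMNs. With 1 library left out in turn, the log2 fold change was lowest without WT 3 (0.67) and highest without FOXO3 KO 3 (1.03), and the limma p ran from 0.0030 to 0.066, under 0.05 in 7 of 11 such fits.

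Tlr9 was then set beside B cell content. Cd79a (chr7:24897381-24902197), which encodes a chain of the B cell antigen receptor, had 20.5, 3.93 and 21.8 TPM in WT 1, 2 and 3 and 16.9, 4.68 and 9.63 TPM in FOXO3 KO 1, 2 and 3. In the second series it rose to 165.6 and 181.7 TPM in WT 03 and 08 and 614.1, 291.3 and 156.2 TPM in FOXO3 KO 05, 06 and 09. Thus Cd79a spanned 3.93 to 614.1 TPM while Tlr9 spanned 4.92 to 23.2 TPM, and the ratio of Tlr9 to Cd79a spanned 0.225 to 2.40 in the first series but 0.0299 to 0.136 in the second.

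The library with the most Tlr9, FOXO3 KO 1 at 23.2 TPM, had 16.9 TPM of Cd79a, below WT 1 and WT 3. Of the libraries with 156.2 to 181.7 TPM of Cd79a, FOXO3 KO 09 had 21.2 TPM of Tlr9, and WT 03 and WT 08 had 10.99 and 9.62 TPM. FOXO3 KO 05, with the most Cd79a at 614.1 TPM, had less Tlr9 than FOXO3 KO 09. In the first series Tlr9 and Cd79a gave Pearson's r = 0.23 (n = 6, exact permutation p = 0.68, 0.93 after Benjamini-Hochberg adjustment over 2 genes) and Spearman's rho = 0.029 (exact permutation p = 1.0), and r was 0.070 without WT 2 and FOXO3 KO 2, the 2 libraries farthest from the median of Cd79a. No r over all 11 libraries is given, since Cd79a formed separate clusters, and the second series has only 5 libraries. Cd79a follows the series, so a fit with Cd79a as a covariate cannot separate B cell RNA from the series. The log2 difference of Tlr9 between the series was 0.54 without Cd79a in the model and -0.13 with it (standard error 0.80). With the series as a covariate, the genotype log2 fold change of Tlr9 was 0.77. With Cd79a as a covariate in limma, the log2 fold change of Tlr9 was 0.75 (standard error 0.27, unadjusted p = 0.018, FDR = 0.88). By limma it was 0.76 in the first series alone (unadjusted p = 0.15) and 0.78 in the second alone (unadjusted p = 0.036).

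**Figure D2:**
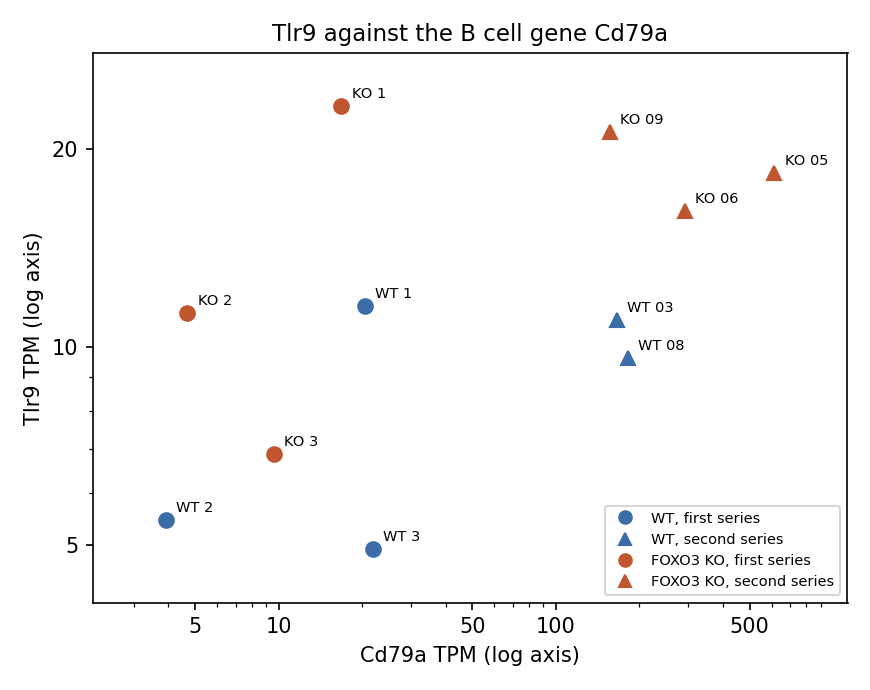
Tlr9 TPM against Cd79a TPM in each of the 11 libraries, both on log axes, with genotype as colour and numbering series as symbol. The second series lies to the right, at 156.2 TPM of Cd79a or more, and within it the 3 FOXO3 KO libraries, at 16.1 to 21.2 TPM of Tlr9, lie above the WT libraries at 9.62 and 10.99 TPM.

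Markers of plasmacytoid dendritic cells, another cell type with Tlr9, summed to 58.3 to 121.0 TPM in the first series and 92.0 to 259.3 TPM in the second. The highest sum was in WT 03, where Tlr9 was 10.99 TPM, and the lowest was in FOXO3 KO 3, where it was 6.87 TPM. None of the 7 markers was at 0 in every library, but 3 were under 1 TPM in every library of the first series. Only 5 of the 7 passed the filter. Their part in the Tlr9 difference was not tested.

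Across the 11 libraries, the genes whose log2(TPM + 1) was most like that of Tlr9 were Mien1 (Pearson's r = 0.95), Gm5526 (r = 0.95), Cstf1 (r = 0.94), Nip7 (r = 0.94) and Taf1c (r = 0.94), as a description over libraries that share their series and genotype. Cd79a was not among these 5, but nothing about B cell RNA follows from this, since Cd79a formed separate clusters over the 11 libraries. Among the members, Tlr4 ran most nearly opposite to Tlr9 (r = -0.86), and the pairs most alike were Tlr5 with Tlr13 (r = 0.89), Tlr1 with Tlr7 (r = 0.72) and Tlr8 with Tlr13 (r = 0.72).

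Tlr7, Tlr8 and Tlr13, the endosomal RNA sensors of this list, all lie on the X chromosome. Tlr7 (chrX:167304929-167330558, minus strand) had 23.9, 16.6 and 13.5 TPM in WT 1, 2 and 3 and 29.3, 27.3 and 32.1 TPM in FOXO3 KO 1, 2 and 3. It had 27.3 and 14.0 TPM in WT 03 and 08 and 19.9, 13.1 and 17.7 TPM in FOXO3 KO 05, 06 and 09. All FOXO3 KO libraries were above all WT libraries in the first series, whereas in the second the FOXO3 KO libraries lay between or below the WT values. All genes tested in the first series had a median log2 fold change of 0.21. The share of them that separated in this way was not counted, so the separation only describes the values of Tlr7, and likewise those of Tlr6.

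The ratio of Tlr7 means, FOXO3 KO to WT, was accordingly 1.65 in the first series but 0.818 in the second, and the pooled log2 fold change was 0.27 (standard error 0.26, 95% interval -0.31 to 0.84). By limma in the first series alone it was 0.72 (unadjusted p = 0.017, FDR = 0.71). The difference between the series in this effect, tested as an interaction, was -0.95 on the log2 scale (standard error 0.43, unadjusted p = 0.052, FDR = 1.00).

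Tlr8 (chrX:167242696-167264329, minus strand), whose human counterpart senses single-stranded RNA, had 11.4, 8.40 and 15.3 TPM in WT 1, 2 and 3 and 13.4, 13.8 and 17.8 TPM in FOXO3 KO 1, 2 and 3. In the second series it had 11.1 and 4.27 TPM in WT 03 and 08 and 1.23, 1.17 and 7.21 TPM in FOXO3 KO 05, 06 and 09. FOXO3 KO 05 and 06 were thus the lowest of all libraries, and FOXO3 KO 09 lay between the WT libraries of its series. The pooled log2 fold change for genotype was -0.50 (standard error 0.60, 95% interval -1.80 to 0.80), and the interaction was -1.59 (standard error 0.75, unadjusted p = 0.058, FDR = 1.00 by limma). With 1 library left out in turn, the genotype value of Tlr8 ran from -0.77 (without FOXO3 KO 3) to -0.15 (without FOXO3 KO 06).

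Tlr13 (chrX:106143204-106160493, plus strand) had 120.6, 179.1 and 169.9 TPM in WT 1, 2 and 3 and 144.8, 196.8 and 289.6 TPM in FOXO3 KO 1, 2 and 3. In the second series it had 142.8 and 163.0 TPM in WT 03 and 08 and 77.5, 115.9 and 174.0 TPM in FOXO3 KO 05, 06 and 09. The genotypes overlapped in both series, and over both series together the FOXO3 KO libraries reached below and above the WT range. Its pooled log2 fold change was -0.003 (standard error 0.29, 95% interval -0.63 to 0.62), with 0.39 in the first series alone and -0.39 in the second. Tlr7, Tlr8, Tlr9 and Tlr13 were higher in FOXO3 KO in 3 of 3 same-numbered pairs of the first series, as were Tlr1 and Tlr6. Of all genes tested, 48.0% were higher in all 3 pairs, and in the first series alone the median log2 fold change was 0.21, with 474 genes higher and 121 lower at an unadjusted limma p under 0.05, so the count of 6 members stands against a general shift. No member passed an unadjusted p of 0.05 for the interaction, against 2.08% of all genes.

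The labels do not give the sex of the mice. Ddx3y, a Y-linked gene, was at 0.264 TPM or less in WT 1, 2 and 3 and in FOXO3 KO 1, 2, 05 and 06, and at 18.03 to 42.9 TPM in WT 03, WT 08, FOXO3 KO 3 and FOXO3 KO 09. Xist, transcribed from the inactive X chromosome, had 27.7 to 84.0 TPM in the first set of libraries and at most 4.29 TPM in the other. The Y-linked transcript was therefore unevenly spread over the genotypes in both series. FOXO3 KO 3, where it was highest, also had the most Tlr13, Tlr8 and Tlr7. With Xist as a covariate, the genotype log2 fold change of Tlr9 was 0.85.

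**Figure D3:**
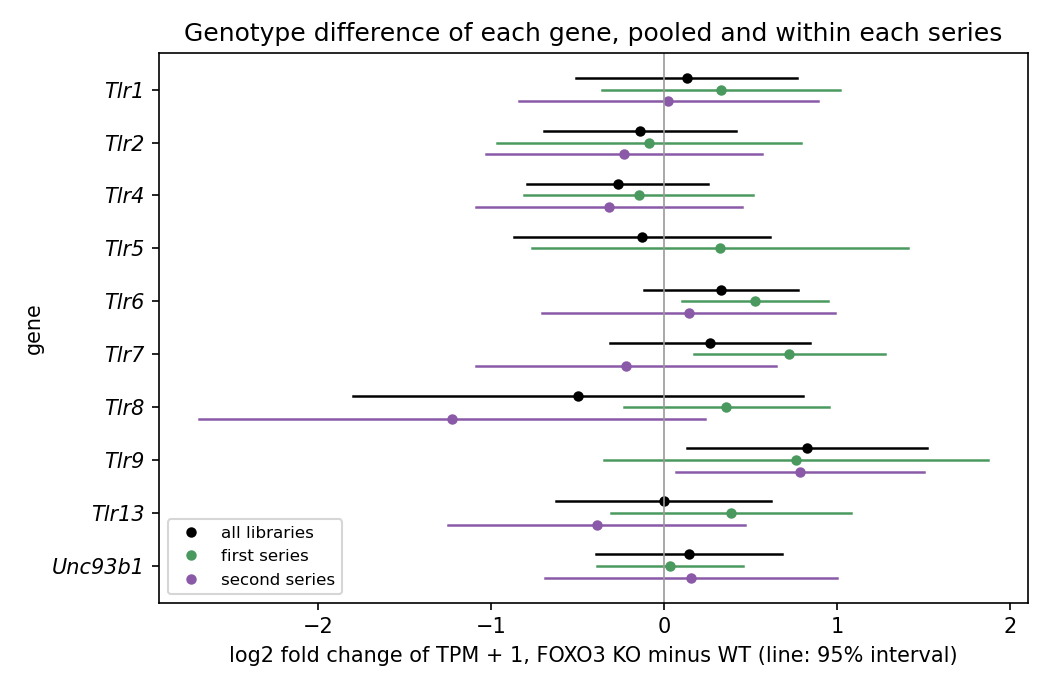
Log2 fold change of TPM + 1 (FOXO3 KO minus WT; lines, 95% intervals from limma) of each gene in all libraries and in each numbering series alone. The pooled interval lies above 0 only for Tlr9, and Tlr7, Tlr8 and Tlr13 have values of opposite sign in the 2 series; Tlr5 has no value for the second series, where its mean was under 1 TPM.

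Among the surface receptors, Tlr6 (chr5:64952031-64960097, minus strand), which pairs with TLR2 for diacylated lipopeptides, had 53.9, 44.6 and 44.7 TPM in WT 1, 2 and 3 and 71.0, 59.3 and 77.2 TPM in FOXO3 KO 1, 2 and 3. It had 47.7 and 45.6 TPM in WT 03 and 08 and 34.6, 51.9 and 76.0 TPM in FOXO3 KO 05, 06 and 09. All FOXO3 KO libraries except FOXO3 KO 05 and 06 were above the highest WT library. WT PMNs averaged 47.3 ± 3.89 TPM (SD, n = 5) and FOXO3 KO PMNs 61.7 ± 16.5 TPM (SD, n = 6), with a log2 fold change of 0.33 (standard error 0.21, 95% interval -0.12 to 0.78, FDR = 0.99 by limma).

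Tlr1 (chr5:64924679-64933563, minus strand), the neighbour of Tlr6, which pairs with TLR2 for triacylated lipopeptides, had 63.7, 51.4 and 38.6 TPM in WT 1, 2 and 3 and 82.7, 68.8 and 44.4 TPM in FOXO3 KO 1, 2 and 3. It had 54.2 and 24.0 TPM in WT 03 and 08 and 36.1, 35.6 and 38.6 TPM in FOXO3 KO 05, 06 and 09. The genotypes overlapped in both series, and in the second the FOXO3 KO libraries lay between the WT libraries. The log2 fold change was 0.13 (standard error 0.29, 95% interval -0.51 to 0.77). Of the 31-base words in Tlr1 transcripts, 20.02% also occurred in another gene, as did 16.6% of those of Tlr6, and 607 words were common to both genes, so how reads were divided between Tlr1 and Tlr6 is uncertain.

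Tlr2 (chr3:83836272-83841767, minus strand) had 202.5, 274.4 and 348.1 TPM in WT 1, 2 and 3 and 155.7, 258.6 and 401.7 TPM in FOXO3 KO 1, 2 and 3. It had 249.8 and 377.6 TPM in WT 03 and 08 and 197.8, 336.0 and 268.6 TPM in FOXO3 KO 05, 06 and 09. Libraries with the same number lay closer than those of the same genotype in the first series, and the log2 fold change was -0.14 (standard error 0.26, 95% interval -0.69 to 0.42).

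Tlr4 (chr4:66827584-66930284, plus strand), the lipopolysaccharide receptor, had 55.2, 60.0 and 74.1 TPM in WT 1, 2 and 3 and 38.8, 58.6 and 78.9 TPM in FOXO3 KO 1, 2 and 3. It had 41.2 and 57.7 TPM in WT 03 and 08 and 41.5, 47.9 and 29.6 TPM in FOXO3 KO 05, 06 and 09. FOXO3 KO 09 was the lowest and FOXO3 KO 3 the highest, so the WT range lay inside that of FOXO3 KO, and the log2 fold change was -0.27 (standard error 0.24, 95% interval -0.79 to 0.26).

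Tlr5 (chr1:182954788-182976044, plus strand) had 0.434, 1.48 and 1.41 TPM in WT 1, 2 and 3 and 0.633, 1.07 and 3.93 TPM in FOXO3 KO 1, 2 and 3. It had 1.49 and 1.00 TPM in WT 03 and 08 and 0.156, 0.474 and 0.870 TPM in FOXO3 KO 05, 06 and 09. FOXO3 KO 3 stood above all other libraries, and the log2 fold change was -0.13 (standard error 0.34, 95% interval -0.87 to 0.61). The means, 1.16 TPM in WT and 1.19 TPM in FOXO3 KO, differed in the other direction, since FOXO3 KO 3 raised the second.

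Unc93b1 (chr19:3935186-3949340, plus strand) had 99.6, 97.8 and 80.5 TPM in WT 1, 2 and 3 and 108.5, 91.9 and 84.5 TPM in FOXO3 KO 1, 2 and 3. It had 162.6 and 104.8 TPM in WT 03 and 08 and 211.4, 125.5 and 115.8 TPM in FOXO3 KO 05, 06 and 09. The genotypes overlapped in both series, with a log2 fold change of 0.14 (standard error 0.25, 95% interval -0.39 to 0.68). FOXO3 KO 05, the library with the most Unc93b1, also had the highest B cell marker sum, 2410 TPM. In the first series Unc93b1 and Cd79a gave Pearson's r = -0.043 (n = 6, exact permutation p = 0.93) and Spearman's rho = -0.14 (exact permutation p = 0.80), with r = 0.18 without WT 2 and FOXO3 KO 2.

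The numbering series were then compared with each other, with genotype in the model. Of all genes, 8.36% were higher and 12.3% lower in the second series at FDR < 0.05 by limma, and the median log2 difference was -0.15. Without other covariates Tlr8 was the only member to pass, and it was lower in the second series. The mean of Tlr8 was 13.3 ± 3.23 TPM (SD, n = 6) in the first series and fell to 5.00 ± 4.23 TPM (SD, n = 5), and its log2 difference was -1.51 (standard error 0.42, FDR = 0.027). The ranges overlapped, since WT 03 at 11.1 TPM exceeded WT 2 at 8.40 TPM. The FDR rose to between 0.055 and 0.071 when WT 08 or FOXO3 KO 1, 2, 3, 05 or 06 was left out, and to 0.062 with no filter on low values, so the call rests on these libraries and on the filter. With Cd79a as a covariate, which follows the series, the difference was -0.18 (FDR = 0.99).

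Unc93b1 had a log2 difference of 0.56 between the series (standard error 0.19, FDR = 0.053), with 80.5 to 108.5 TPM in the first and 104.8 to 211.4 TPM in the second. Unc93b1 passed after quantile normalization (0.76, FDR = 0.0078), with Xist as a covariate or array weights, and without WT 08 or FOXO3 KO 09 (FDR = 0.047 for both). Tlr1 had -0.63 (standard error 0.24, FDR = 0.078), -0.86 without WT 03 (FDR = 0.010) and Tlr4 had -0.45 (FDR = 0.14). Tlr9 had 0.54 (standard error 0.28, FDR = 0.19), with a mean of 10.5 ± 6.83 TPM (SD, n = 6) in the first series and 15.3 ± 4.88 TPM (SD, n = 5) in the second. With array weights, which called 5792 genes in all, Tlr9 (0.68, FDR = 0.016), Tlr1 (-0.86, FDR = 0.0012) and Tlr7 (-0.46, FDR = 0.038) passed as well, and Tlr7 passed without WT 03 (-0.63, FDR = 0.034). With Xist as a covariate, Tlr13 (-1.09, FDR = 0.0029), Tlr5 (-1.09, FDR = 0.023) and Tlr6 (-0.61, FDR = 0.046) passed. The 12 B cell markers had a median log2 difference of 3.31, and 12 of 12 were higher in the second series at FDR < 0.05.

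Macrophage markers, from cells that also carry Toll-like receptors, moved with Tlr8. The sum of 9 markers was 907.1, 608.7 and 658.0 TPM in WT 1, 2 and 3 and 796.8, 655.0 and 618.6 TPM in FOXO3 KO 1, 2 and 3. It was 1005 and 245.0 TPM in WT 03 and 08 and 223.4, 175.7 and 398.4 TPM in FOXO3 KO 05, 06 and 09. The libraries with the least Tlr8, FOXO3 KO 05 and 06 at 1.23 and 1.17 TPM, had the lowest sums, and WT 03, with the highest sum, was the only library of the second series whose Tlr8 lay in the range of the first. Of the 8 macrophage markers tested, 4 were lower in the second series at FDR < 0.05, against 12.3% of all genes. No marker of the 9 was at 0 in every library, but in each series 1 was under 1 TPM throughout.

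Over the 11 libraries, log2 Tlr8 and the log2 macrophage sum gave Pearson's r = 0.90 (permutation p = 0.0006, 0.006 after Benjamini-Hochberg adjustment over the 10 members) and Spearman's rho = 0.69 (permutation p = 0.022, adjusted 0.11). Pearson's r was 0.75 without FOXO3 KO 05 and 06, -0.11 within the first series (n = 6) and 0.89 among the 5 libraries of the second. The relation therefore did not hold within the first series, where the sum spanned only 608.7 to 907.1 TPM. Relations to the macrophage sum were chosen after the values were seen. Their permutations pooled both series, so a shift shared between the series enters each p. Tlr1 gave r = 0.76 (permutation p = 0.0060, adjusted 0.030) and rho = 0.77 (permutation p = 0.0073, adjusted 0.073), with r = 0.81 without FOXO3 KO 05 and 06, 0.59 within the first series and 0.75 in the second. Tlr7 gave r = 0.64 (permutation p = 0.040, adjusted 0.13), and the remaining members had adjusted permutation p of 0.41 or more. Tlr9 gave r = -0.30 (permutation p = 0.37, adjusted 0.41).

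**Figure D4:**
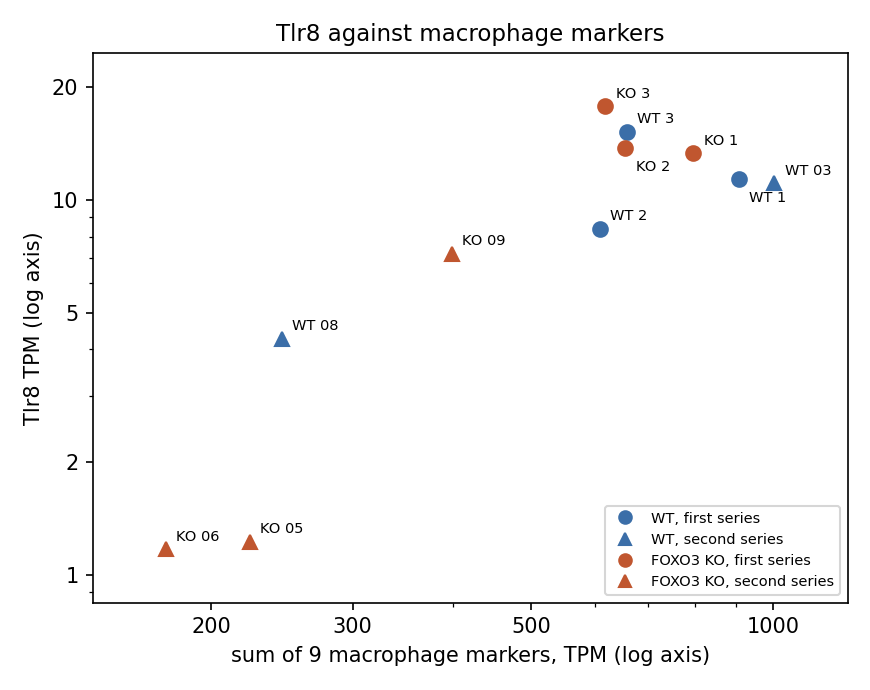
Tlr8 TPM against the summed TPM of 9 macrophage markers in each of the 11 libraries, both on log axes, with genotype as colour and numbering series as symbol. FOXO3 KO 05 and 06 lie lowest on both axes, at 1.23 and 1.17 TPM of Tlr8, while the first series and WT 03 lie together at 8.40 to 17.8 TPM of Tlr8.

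The partners of the receptors were described by lists of named genes, 72 of 81 of which were tested. None was called between genotypes, and at an unadjusted p under 0.05 there was 1 gene higher in FOXO3 KO, Irak1, and 0 lower. Of all genes, 1.56% were higher and 0.549% lower at this threshold, so 1 gene of 72 is near the general share. For 5 co-receptor and ligand delivery genes the median log2 fold change was -0.05, with 2 positive and 3 negative. Lbp, which transfers lipopolysaccharide to its receptors, had -0.30 (standard error 0.29), and Cd36, a scavenger receptor that assists TLR2, had -0.55 (standard error 0.67).

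For 16 genes that fold, transport, cleave or supply the endosomal receptors the median was 0.01, with 8 positive and 8 negative. Cnpy3, a chaperone of Toll-like receptor folding, had 0.38 (standard error 0.23), and Lgmn, a lysosomal protease that cleaves endosomal receptors, had -0.48 (standard error 0.49). Only 3 of 6 TIR adaptors were tested, with a median of -0.03. Myd88 averaged 148.1 ± 31.1 TPM in WT (SD, n = 5) and 125.6 ± 33.1 TPM with FOXO3 deleted (SD, n = 6; log2 fold change -0.26, standard error 0.22), and Ticam1, the adaptor of TLR3 and TLR4, had 0.08 (standard error 0.16).

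The 16 kinases and ubiquitin ligases had 13 positive and 3 negative values, with a median of 0.11, equal to that of all genes. Irak1, a kinase recruited to MYD88, had 27.3, 17.6 and 19.4 TPM in WT 1, 2 and 3 and 33.0 and 18.3 TPM in WT 03 and 08, and 27.1 to 37.9 TPM in FOXO3 KO libraries with a median of 28.9 TPM. The genotypes overlapped through WT 1 and WT 03. Its log2 fold change was 0.42 (standard error 0.19, unadjusted p = 0.047, FDR = 0.99 by limma), and Tab1, a partner of the kinase TAK1, had 0.35 (standard error 0.19). Between the series, 8 of these 16 genes were lower in the second at FDR < 0.05, against 12.3% of all genes.

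Among 8 transcription factors the median was 0.02, with 5 positive and 3 negative. Irf1 had -0.53 (standard error 0.38), with 319.1 TPM in WT 2 against 49.9 to 171.0 TPM in the other libraries, and Irf7 had -0.64 (standard error 0.58). Without WT 2 the value of Irf1 was -0.19, and that of Irf7 was -1.02 when WT 1 was left out and -0.32 when FOXO3 KO 1 was. The 13 negative regulators had a median of -0.01, with 6 positive and 7 negative. Tnfaip3, which encodes the deubiquitinase A20, had 0.31 (standard error 0.27), and Nfkbia, the inhibitor of NF-kB, had 0.23 (standard error 0.20).

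The 11 NF-kB target genes had a median of 0.12, with 9 positive and 2 negative. Il10, an anti-inflammatory cytokine, had 393.9, 70.5 and 122.9 TPM in WT 1, 2 and 3 and 61.2 and 106.0 TPM in WT 03 and 08. In FOXO3 KO libraries it ranged from 77.5 to 572.3 TPM with a median of 320.5 TPM. All FOXO3 KO libraries except FOXO3 KO 3 were above all WT libraries except WT 1, and the log2 fold change was 1.15 (standard error 0.54, unadjusted p = 0.053, FDR = 0.99 by limma). Ccl3, a chemokine, averaged 5691 ± 1359 TPM in WT (SD, n = 5) and 8012 ± 2165 TPM with FOXO3 deleted (SD, n = 6), with a log2 fold change of 0.48 (standard error 0.24, unadjusted p = 0.067, FDR = 0.99 by limma). Both differences lay mainly in the second series. By limma, Ccl3 had 0.047 in the first series alone (unadjusted p = 0.85) and 1.00 in the second (unadjusted p = 0.032). Il10 had 0.43 in the first (unadjusted p = 0.60) and 2.06 in the second (unadjusted p = 0.0016, FDR = 0.73).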

How the data were processed

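The deposited table holds 54164 genes and 1 TPM column per library, quantified by the authors; 0 value columns were left unmapped. STAR (2.6.1d), kallisto (0.46.0), DESeq2, mm10 and hg38 stand in the submitters' processing notes without roles. The TPM columns sum to 935140 to 952238, and the read depth behind them is unknown, so counting error is not given. Columns with a mean normalized count (a signal averaged by the authors), log2 fold change, score and p-value, deposited by the authors as their own comparison, were not used. Second-series columns name only their genotype, so none was tied to a labelled mouse.

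TPM has no counts, so log2(TPM + 1) was compared with limma 3.58.1 (R 4.3.3, mean-variance trend), and p-values were adjusted by Benjamini-Hochberg over 12195 genes, those averaging 1 TPM or more. The fit was tested on simulated data. The thresholds of 0.5 and 0.05 follow the study's methods; the fold change limit was taken as log2, which the methods do not state. Alternatives were quantile normalization, no filter, a filter at 5 TPM, a replicate block, a pseudocount of 0.1, the series, Cd79a or Xist as a covariate, each series alone, array weights, unadjusted p-values and each library left out. Leaving out FOXO3 KO 05 and 06 together and the relation to macrophage markers were added after the data were seen.

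Same-numbered libraries of the first series deviated together from their group means (r = 0.51, 0.17 and 0.41, across genes). Those with different numbers gave -0.42 to 0.089. Each group was centred on its own mean, so higher values for the same numbers lower the others. This contrast is therefore not independent support for a pairing. The labels state none, the numbers come from the column names, and the replicate block was used only as an alternative. The members and lists were chosen with earlier results of these data known. Named besides the members were Foxo3, Cd79a, the 2 genes with the smallest p in each pathway list and the 5 genes most like Tlr9; Xist and Ddx3y were added after their values were seen. Correlations used exact permutations or 100000 of them (scipy 1.17.1). Coordinates are from GENCODE M21 on GRCm38, and promoters from RefSeq on GRCm38.p6.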

Additional observations from a re-analysis of the deposited data

Results flagged for a closer look

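Tlr5 was at 3.93 TPM in FOXO3 KO 3, against 0.156 to 1.07 TPM in the other 5 FOXO3 KO libraries, so that this library lay far from its group. Unc93b1 was at 211.4 TPM in FOXO3 KO 05, against 84.5 to 125.5 TPM in the other 5. Chance alone marks about 1 in 20 groups by the test used for extreme values (Dixon's test), and 20 sets of libraries were tested.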

How the results depend on the processing

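All settings gave the same result as reported for the direction of the Tlr9 genotype difference (log2 fold change 0.67 to 1.03), and no member was called between genotypes at FDR < 0.05 under any of them; Tlr9 is among the genes called by unadjusted p. The number of genes called between genotypes was 0, with 1 in the second series alone, 0 to 2 with 1 library left out, 2 without FOXO3 KO 05 and 06 (Foxo3 among them, at -1.96, limma FDR = 0.040), and 183 by unadjusted p with the fold change limit. The replicate block rests on a pairing by number that the labels do not state. Under this block Tlr9 had 0.77 (limma, unadjusted p = 0.00033, FDR = 0.75) and no call changed. Tlr13 turned there from -0.003 to 0.041, as it did with the series (0.041) or Xist (0.039) as a covariate. Its value was 0.073 with Cd79a as a covariate and 0.094 with array weights. In the first series alone, Tlr5 (0.32), Tlr8 (0.36), Tlr13 (0.39), Cd36 (0.054) and Lgmn (0.18) turned positive, and in the second alone Tlr7 turned negative (-0.22). Without FOXO3 KO 05 and 06, which were picked after their values were seen, so that the direction of a shift may follow from the choice, Tlr5 (0.16), Tlr8 (0.37), Tlr13 (0.34), Cd36 (0.060) and Lgmn (0.085) turned positive and Unc93b1 (-0.092) and Ticam1 (-0.070) negative; Ticam1 was also -0.033 after quantile normalization. With 1 library left out, the genotype value ran from -0.083 to 0.26 for Tlr1, -0.27 to 0.0046 for Tlr2, -0.27 to 0.021 for Tlr5, -0.19 to 0.19 for Tlr13 and -0.025 to 0.30 for Unc93b1. Between the series, 2525 genes passed, with 1682 at a mean of at least 5 TPM, 5792 with array weights and 1497 (without WT 08) to 3871 (without WT 03) with 1 library left out. The series difference of Tlr2 was -0.21 with Xist as a covariate and ran from -0.054 to 0.29 with 1 library left out. With Cd79a as a covariate, which itself follows the series, that of Tlr5 was 0.92, Tlr6 0.35, Tlr9 -0.13 and Tlr13 1.03. The cause of these reversals was not tested. Read depth is unknown, so low values such as those of Tlr5 carry an unknown counting error.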
